A study of Rattus norvegicus with 3 samples.

Results

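Imprinted growth genes are expressed mainly from the copy inherited from 1 parent, and many of them set the pace of fetal and early postnatal growth. The set described here was fixed by name and held 10 genes, namely Plagl1, Mest, Slc38a4, Igf2, Igf2r, Dlk1, Impact, Cdkn1c, Gnas and Grb10. Members were found by matching the RefSeq accessions of the array's probe sets to these rat symbols. Of the 10 genes, 9 had a probe set, with 12 probe sets in all out of 26419 on the array. No accession on the array matched Grb10, an adaptor that restrains insulin and IGF receptor signalling, and no value is given for it. Only 36.9% of the probe sets could be named, so a Grb10 probe set may be among those without a name. The genes were chosen with their values on days 6, 8 and 10 already known, so the levels and differences below are descriptions and no test is attached to them.

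The samples were whole testes of young rats of the Wistar-Imamichi strain. Testes were taken on postnatal days 6, 8 and 10, with the day of birth counted as day 1, and the animals carried no stated allele or treatment. Total RNA of each day was hybridised in Cy3 to 1 one-colour NimbleGen expression array, and the labels do not say how many animals gave each RNA. With 1 array per day there is no replicate check and no p-value, and a difference of age cannot be told apart from one of animals or arrays.

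In mouse, where most of the imprinting has been mapped, Plagl1, Mest, Slc38a4, Igf2, Dlk1 and Impact are expressed from the paternal copy, and Igf2r, Cdkn1c and Grb10 from the maternal copy in most tissues. Gnas gives transcripts from either parental copy depending on promoter and tissue. It is placed here with the maternally expressed genes only for grouping, and which copy is used in these testes was not measured. Paternally expressed genes of this group tend to promote growth and maternally expressed ones tend to restrain it. Igf2 is the fetal growth factor of the insulin family, and Igf2r takes it up for breakdown. Plagl1 is a zinc finger factor known in mouse to act on other imprinted genes. In the young testis, insulin-family signalling drives Sertoli cell proliferation, and Dlk1 is known from immature interstitial and fetal-type Leydig cells.

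The start regions of the 3 genes with the lowest day 10 levels relative to day 6 are shown first, because CG dinucleotides, the sites at which imprints are written as DNA methylation, are dense in some of them and sparse in others. Each sequence runs from 250 bases before to 50 after a gene start, is taken from RefSeq's build GRCr8 and is printed 5′ to 3′ on the gene's strand, with CG dinucleotides in capitals. Plagl1 is chr1:9297214-9297513 (+), Mest is chr4:60321564-60321863 (+) and Slc38a4 is chr7:130082120-130082419 (-).
Plagl1: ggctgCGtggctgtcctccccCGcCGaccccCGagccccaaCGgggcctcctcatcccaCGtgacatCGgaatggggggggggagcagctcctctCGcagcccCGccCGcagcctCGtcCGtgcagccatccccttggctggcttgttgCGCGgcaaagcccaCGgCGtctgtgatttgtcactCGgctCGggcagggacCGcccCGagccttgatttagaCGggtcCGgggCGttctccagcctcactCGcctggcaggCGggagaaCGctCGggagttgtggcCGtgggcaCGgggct
Mest: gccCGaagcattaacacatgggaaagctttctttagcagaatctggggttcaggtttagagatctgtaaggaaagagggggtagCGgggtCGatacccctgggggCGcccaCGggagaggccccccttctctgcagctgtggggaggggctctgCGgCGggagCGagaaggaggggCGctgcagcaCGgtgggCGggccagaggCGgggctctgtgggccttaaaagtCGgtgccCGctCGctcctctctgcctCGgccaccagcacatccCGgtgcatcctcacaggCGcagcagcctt
Slc38a4: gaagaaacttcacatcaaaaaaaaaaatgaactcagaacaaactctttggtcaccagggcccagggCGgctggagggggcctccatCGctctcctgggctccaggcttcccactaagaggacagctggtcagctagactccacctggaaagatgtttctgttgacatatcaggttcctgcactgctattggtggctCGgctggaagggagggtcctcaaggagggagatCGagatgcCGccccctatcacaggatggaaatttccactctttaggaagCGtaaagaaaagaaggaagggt

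The Plagl1 region held 29 CG dinucleotides, more than 88.5% of the 33469 rat start regions of this length. The Mest region held 18, more than 72.5% of them, and the Slc38a4 region held 6, more than 43.7%. The table of start regions had 12 entries for 9 of the 10 genes, and Cdkn1c had none. The entries ran from 5 CG dinucleotides in Impact to 45 in Dlk1, with a median of 18.5 against 7 over all start regions. The 2 Igf2 entries held 7 and 19, the Igf2r entry 30 and the Grb10 entry 44. The 3 Gnas entries held 18, 12 and 41.

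The letters TGCCGC, which ZFP57 binds in mouse when methylated, were searched on both strands and occurred in 5 of the 12 entries (Plagl1, Slc38a4, 1 entry of Igf2, Dlk1 and Grb10). They occurred in 11.7% of all start regions and in 27.8% of the 9194 regions with at least 18 CG dinucleotides. That cut was set from the median of the genes' own entries, and regions above it were not matched further by CG count. Of the genes' own entries, 8 had at least 18, and 4 of those 8 held the letters. The palindrome GGGGCCCC, a GC-rich run of the kind Plagl1 protein is known to bind, was found in 1 Gnas entry and in 0.858% of all start regions. These are matches of letters in 1 window per start, and nothing on binding or methylation was measured.

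Plagl1, the imprinted zinc finger factor, had intensities of 12191, 10412 and 2127 on days 6, 8 and 10. Its level on day 8 was near that of day 6, and that of day 10 was far below both. Plagl1 was 4.89-fold lower on day 10 than on day 8, and 1.17-fold lower on day 8 than on day 6. Over the whole interval it was 5.73-fold lower on day 10, and its difference was number 80 from the most negative of 13959 genes compared.

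Mest, a hydrolase-like protein of growing mesoderm, had intensities of 5061, 3769.9 and 1149.9 on days 6, 8 and 10. Its level was lower at each later day, and it was 4.40-fold lower on day 10 than on day 6. Slc38a4, a sodium-coupled carrier of neutral and cationic amino acids, had 1112, 794 and 241 on the 3 days. It was 4.61-fold lower on day 10 than on day 6 and lay just above the floor on day 10. The floor is the intensity under which a value was not read as expression, and was 220.3, 221 and 203 on days 6, 8 and 10.

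Igf2, the growth factor itself, had intensities of 623, 379 and 173 on days 6, 8 and 10, and on day 10 it lay under the floor. Against that floor it was at least 3.06-fold lower on day 10 than on day 6. It was at least 1.86-fold lower on day 10 than on day 8, and 1.65-fold lower on day 8 than on day 6. Of the 9 genes, Igf2 had the most negative difference between days 8 and 6, at -0.72 on the log2 scale. Impact, which restrains the eIF2 alpha kinase GCN2, had intensities of 2360.5, 2297 and 846. Its first 2 days were alike, and it was 2.79-fold lower on day 10 than on day 6.

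Dlk1, a membrane protein with EGF repeats related to the Notch ligands, had intensities of 22641, 20166 and 12746 on days 6, 8 and 10. It was 1.78-fold lower on day 10 than on day 6, short of the 2-fold threshold that the submitters' design text names. Igf2r, which clears Igf2 and also carries lysosomal enzymes, had 6528, 6366 and 3414. It was 1.91-fold lower on day 10 than on day 6 and hardly differed between days 8 and 6, at -0.04 on the log2 scale.

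Cdkn1c, a cyclin-dependent kinase inhibitor of the CIP/KIP family, had 2 probe sets. That of NM_001033757 had intensities of 2080.2, 1757 and 1862 on days 6, 8 and 10, a log2 difference of -0.16 for day 10 against day 6. That of NM_001033758 had 264, 261 and 183, under the floor on day 10, and a difference of -0.53. Neither reached 2-fold in any comparison.

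Gnas, whose main product is the G alpha s subunit that activates adenylyl cyclase downstream of gonadotropin receptors, had 3 probe sets that did not move alike. NM_019132 had intensities of 12318, 13499 and 10311 on days 6, 8 and 10, and NM_021845 had 13581, 16933 and 13685. Their day 10 minus day 6 differences were -0.26 and 0.01 on the log2 scale. NM_001024823 had 295, 285 and 86.6, under the floor on day 10, and was at least 1.45-fold lower on day 10 than on day 6. The files do not say which Gnas product each accession stands for. The mean of the 3 gave Gnas a difference of -0.67, which rests on the dim probe set, since the brightest of them alone gave 0.01.

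**Figure D1:**
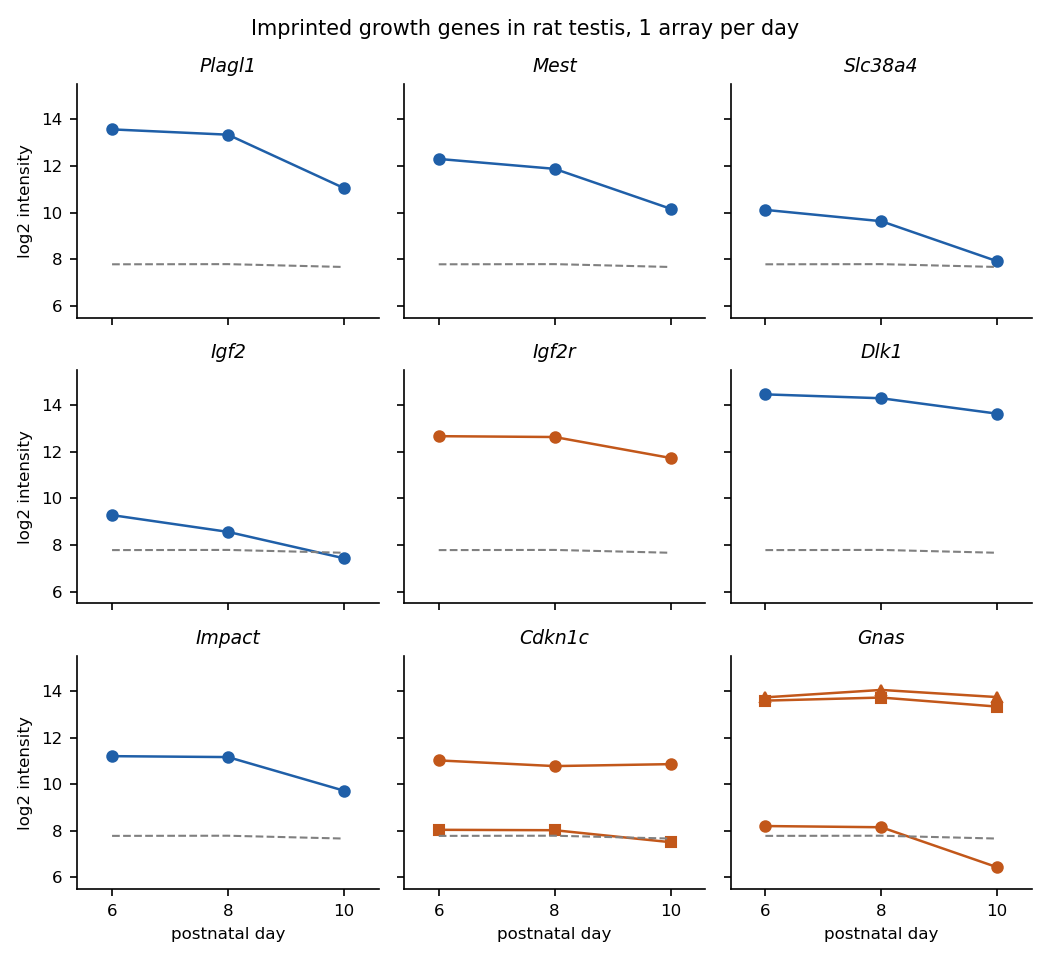
Log2 intensity (vertical axis) of each probe set of the 9 genes on postnatal days 6, 8 and 10 (horizontal axis), 1 array per day, with each array's floor as a dashed grey line. Blue marks paternally expressed genes and orange those grouped as maternally expressed, Gnas among them. Plagl1, Mest, Slc38a4, Igf2 and Impact are at their lowest on day 10, Igf2 and 1 probe set each of Cdkn1c and Gnas end under the floor, and the 2 brighter Gnas probe sets are highest on day 8.

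For day 10 against day 6, the probe sets of a gene were averaged on the log2 scale, and a gene was compared where either day's level reached the floor. All 9 genes were compared and all 9 were lower on day 10, where 48.7% of all genes compared were lower. The difference was 2-fold or more for 5 of them (Plagl1, Mest, Slc38a4, Igf2 and Impact), and 0 were higher by 2-fold or more. Over all 13959 genes compared, 12.8% were lower by 2-fold or more on day 10 and 8.58% higher. In numbers, 1786 genes were lower and 1197 higher, and with each array centred on its median 1506 were lower and 1521 higher, while the count of 5 of the 9 genes did not change. The median difference of the 9 genes was -1.48, against 0.02 over all genes. Because this contrast was known when the genes were chosen, the counts are not a result about imprinted genes in general. For scale, the log2 changes of probe sets of 1 gene had an SD of 0.21 in the median of 66 genes and a pooled SD of 0.40 over the same genes, a spread within arrays and not between animals.

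The 5 genes past 2-fold were all paternally expressed. The 6 paternally expressed genes had a median day 10 minus day 6 difference of -1.99, and Dlk1 was the one short of 2-fold. The 3 genes with a probe set that are grouped as maternally expressed, Igf2r, Gnas and Cdkn1c, had differences of -0.94, -0.67 and -0.35. Their median of -0.67 is the value of Gnas, whose place in this class is only for grouping. That median was -0.16 with the brightest probe set of each gene and -0.48 with the trend of differences with genomic span subtracted. The paternally expressed genes had -1.99 and -1.83 under these settings. The classes hold few genes, all chosen with their values known, and were not tested against each other. The split therefore describes these genes and not paternally expressed genes in general. The 21 other imprinted genes compared further below were not divided by parental copy. Their median day 10 minus day 6 difference was -0.22.

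Most of the difference arose after day 8. For day 10 against day 8, again 9 of 9 genes were lower, where 50.6% of 13972 genes were. For Cdkn1c this rests on the dimmer probe set, at -0.51 and under the floor on day 10. Its brighter probe set gave 0.08. Of the 9 genes, 5 were lower by 2-fold or more as deposited, where 13.7% of all genes were lower and 8.57% higher by that much. For Igf2, 1 of the 5, the bound against the floor is short of 2-fold. The median of the 9 genes was -1.13, against -0.01 over all genes. For day 8 against day 6, 8 of the 9 genes were lower, where 44.7% of 13498 genes were. Of the 9 genes 0 reached 2-fold, where 0.978% of all genes were lower and 0.519% higher by 2-fold or more. The median was -0.17, against 0.04 over all genes, and Gnas was the gene with a positive difference, at 0.13. The share of the whole log2 change that fell after day 8 was 97.3% for Impact, 96.1% for Igf2r, 91.0% for Plagl1, 80.1% for Mest, 79.9% for Dlk1, 78.0% for Slc38a4 and 61.2% for Igf2. It was 62.2% for Cdkn1c and 119.8% for Gnas, both from means of probe sets that did not move alike. These 2 steps share the day 8 array, so a high or low day 8 value enters both with opposite sign.

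**Figure D2:**
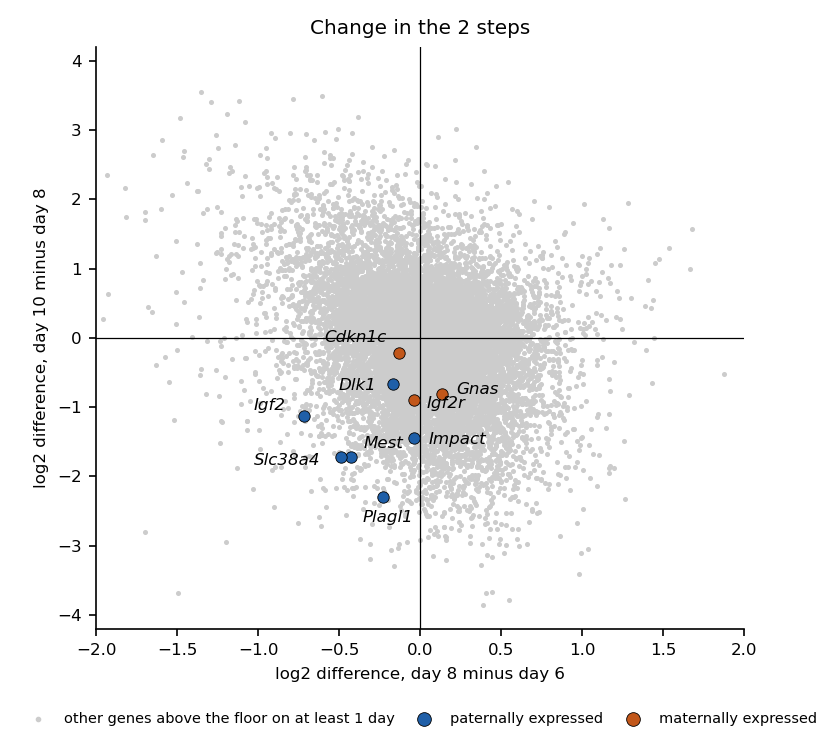
Log2 difference of day 10 minus day 8 (vertical axis) against that of day 8 minus day 6 (horizontal axis), 1 point per gene, for 14140 genes that reached the floor on some day (grey, of which 14 lie outside the axes) and the 9 imprinted growth genes (coloured). All 9 lie below 0 on the vertical axis, and 8 of them also left of 0 on the horizontal axis.

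Across all named genes on these arrays, the day 10 minus day 6 difference was lower in genes with a longer genomic span, the distance from gene start to gene end including introns. The 9 genes spanned from 2.88 kb for Cdkn1c to 88.4 kb for Igf2r, and the fitted trend was 0.35 at the span of Cdkn1c and -0.45 at that of Igf2r. With the trend subtracted, Plagl1 had -2.24, Mest -2.27, Slc38a4 -1.82, Igf2 -1.84, Impact -1.21 and Dlk1 -1.04. These 6 genes were then at least 2-fold lower, Dlk1 having crossed the threshold. Of the 5519 genes with a span that were compared in this way, 486 were lower and 243 higher by 2-fold or more. Igf2r had -0.48 after subtraction, against -0.94 as deposited, and Gnas -0.27, against -0.67. Cdkn1c, the shortest, had -0.70 after subtraction.

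**Figure D3:**
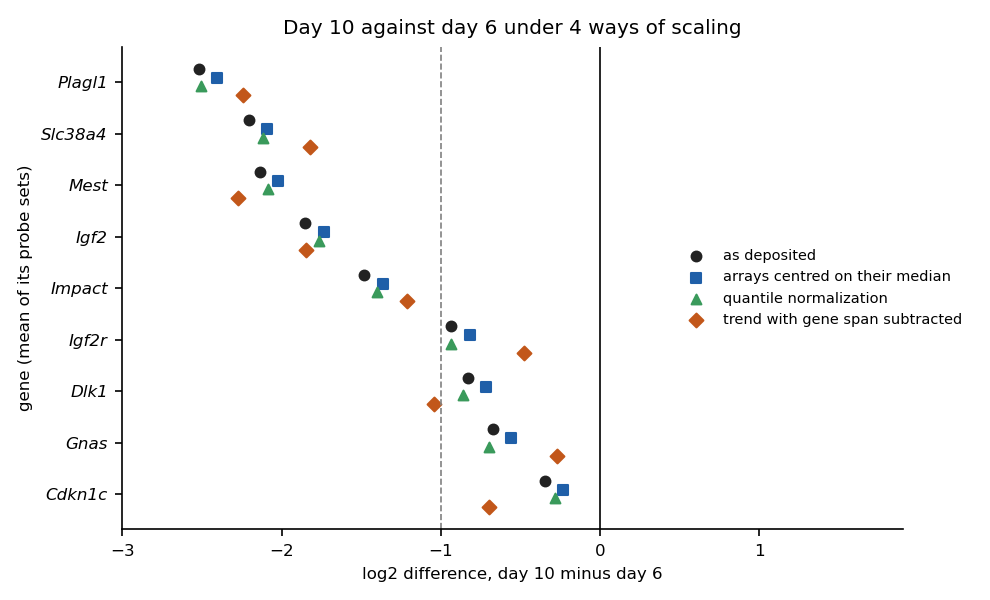
Log2 difference of day 10 minus day 6 (horizontal axis) for each of the 9 genes (vertical axis, ordered by the deposited difference), as deposited, with each array centred on its median, after quantile normalization, and with the trend with gene span subtracted. The dashed line marks 2-fold lower. Plagl1, Slc38a4, Mest, Igf2 and Impact lie left of it under all 4, and Dlk1 only with the trend subtracted.

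In whole-testis RNA, fewer cells of a type and less RNA per cell cannot be told apart, so markers of the cell types were read beside these genes. Sertoli markers had 9, 9 and 10 of 10 genes above the floor on days 6, 8 and 10, and peritubular markers 5 of 5 on each day. Of 9 Leydig cell steroid synthesis genes, 8 were above the floor on each day, while Lhcgr, the luteinizing hormone receptor, was under it on all 3 and was named after its values were seen. The summed intensity of these 9 genes ran 45377, 41733 and 22797 over days 6, 8 and 10. Star, which carries cholesterol into the mitochondrion, was 4.71-fold lower on day 10 than on day 6 and Cyp17a1, an androgen synthesis enzyme, 2.35-fold lower, while Insl3, a Leydig cell peptide chosen after its values were seen, had log2 levels of 8.81, 8.90 and 9.19 on days 6, 8 and 10.

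Summed endothelial markers (4 of 8 on the array, all above the floor on day 6) were 5559.6, 5932 and 2440.4 on days 6, 8 and 10. Fibroblast and matrix markers (7 of 10 on the array, all above the floor on every day) summed to 144229, 146238 and 118974. Sertoli markers summed to 85048, 96020 and 83555, and the 5 interstitial progenitor markers on the array to 17598, 21484 and 17089. Germ cell markers (6 of 11 on the array) summed to 11451, 14968 and 11893. Skeletal muscle markers (8 of 9 on the array) summed to 1170.3, 1033 and 3692, with 3, 2 and 4 of them above the floor. Peritubular markers summed to 69746, 64523 and 66113, macrophage markers (8 of 8 on the array) to 7795, 8971 and 9410.1, and adipose markers (6 of 7) to 802, 909 and 1005. No marker on the array was listed at 0. Of the 10 sums, those of Leydig, endothelial, and fibroblast and matrix markers were lowest on day 10. Their log2 ratios of day 10 to day 6 were -0.99, -1.19 and -0.28. Gene by gene, 6 of 8 Leydig, 4 of 4 endothelial and 7 of 7 fibroblast and matrix markers compared were lower on day 10. The median differences were -0.89, -1.23 and -0.72, and 48.7% of all genes were lower. The Sertoli and interstitial progenitor sums were also lowest on day 10, but with log2 ratios of only -0.03 and -0.04. Of these markers, 6 of 10 Sertoli and 3 of 5 progenitor ones were higher on day 10 than on day 6. The mean levels of all 9 genes were lowest on day 10, and the part of any cell type in their differences was not tested.

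Genes whose 3-day pattern lay nearest to a member were looked up among 4977 other named genes above the floor on all 3 days, by the Euclidean distance over the 2 successive log2 differences. For Slc38a4 the nearest were Star (distance 0.04), Mest (0.06), Pds5a (0.18), Ggta1 (0.20) and Tmem168 (0.21). Mest is itself 1 of the 9 genes and Star the Leydig cell gene named above. For Plagl1 they were Hipk3 (0.19), St6gal1 (0.22), Cpt1a (0.24), Sirpa (0.25) and Cldn1 (0.26). A distance over 3 arrays places these genes side by side and carries no further weight.

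Imprinted genes lie in clusters, so the neighbours of each gene were read. For each of the 9 genes the nearest named gene with a probe set on either side was taken, a choice added after the members' values were seen. These need not adjoin the gene, since genes without a probe set were passed over, from 0 to 14 of them for the neighbours given values here. Of these 18 neighbours 12 were above the floor on day 6 or day 10, with 6 negative and 6 positive day 10 minus day 6 differences and a median of -0.21. Of these 12, 1 was at least 2-fold lower as deposited, Begain, 448 kb from Dlk1 (at least 1.32-fold against the floor). Another 1 was at least 2-fold higher as deposited, Slc22a18, 12.4 kb from Cdkn1c (at least 1.98-fold). Over all genes 48.7% were lower, 12.8% were lower by 2-fold or more and 8.58% higher by 2-fold or more. Ltv1, 48.4 kb from Plagl1, differed by 0.25, and those of Mest were Cep41, 42.1 kb away, at -0.49 and Mkln1, 607 kb away with 14 genes between, at 0.19. On either side of Igf2, Mrpl23, 119 kb away, differed by 0.97 and Ins2, 11.5 kb away, was under the floor on all 3 days. Those of Slc38a4 were its family member Slc38a2, 279 kb away with 13 genes between, at -0.77, and Amigo2, 188 kb away, at -0.94.

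Other imprinted genes were listed from textbook knowledge of mouse, 59 in number. Of these 31 had a probe set and 21 were above the floor on day 6 or day 10. For day 10 against day 6, 16 of the 21 were lower on day 10, where 48.7% of all genes were, and the median was -0.22. By 2-fold or more, 3 were lower and 2 higher (12.8% and 8.58% of all genes, as above). Ampd3, an AMP deaminase, had log2 levels of 8.35, 6.72 and 6.33 on days 6, 8 and 10, and was at least 1.60-fold lower on day 10 than on day 6. Begain, a synaptic scaffold protein, had 8.07, 7.89 and 6.46. Ppp1r9a, an actin-binding protein of neurons, was 2.05-fold lower, at 8.41 on day 10 against 9.44 on day 6, and -0.45 with the trend with span subtracted.

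Slc22a18, an organic cation transporter relative, had log2 levels of 7.16, 7.49 and 8.77 on days 6, 8 and 10 and was at least 1.98-fold higher on day 10 than on day 6. Ascl2, a basic helix-loop-helix factor, had 6.47, 7.92 and 7.92, at least 1.10-fold higher. Tssc4, of the same imprinted domain as Cdkn1c in mouse, was 1.97-fold higher, at 11.32 on day 10 against 10.35 on day 6. With arrays centred on their median, and likewise after quantile or cyclic loess normalization, 2 of the 21 genes were lower and 3 higher by 2-fold or more.

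**Figure D4:**
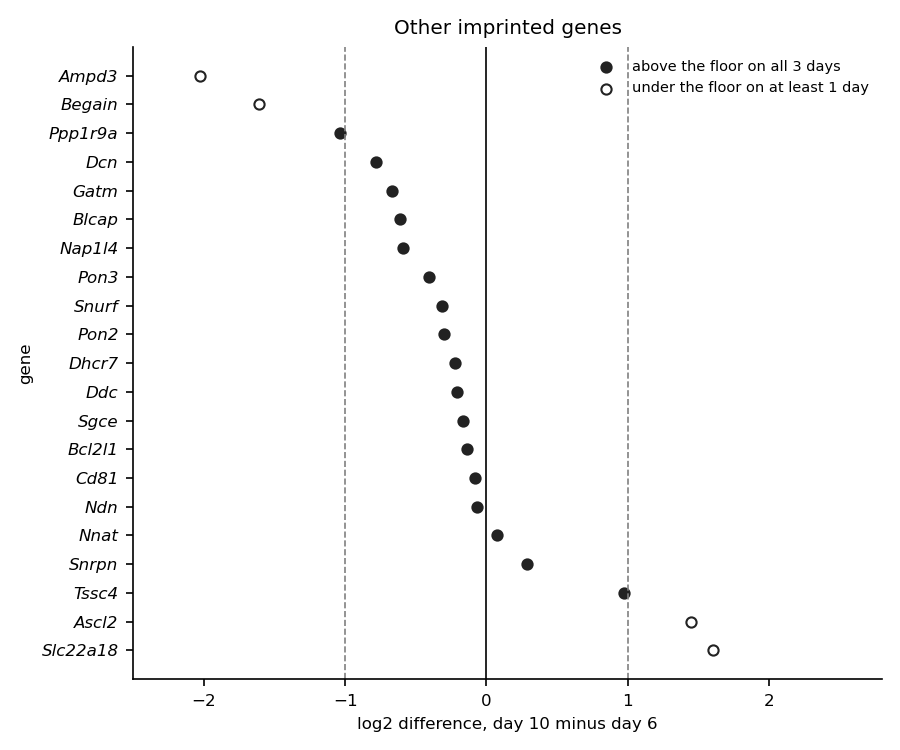
Log2 difference of day 10 minus day 6 (horizontal axis) for the 21 other imprinted genes above the floor on day 6 or day 10 (vertical axis), with filled points for genes above the floor on all 3 days. Dashed lines mark 2-fold lower and higher. Ampd3 (-2.02) is lowest and Slc22a18 (1.60) highest, and 16 points lie left of 0.

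Igf2 acts through the receptors Igf1r and Insr and the adaptors behind them. Of 24 listed ligands, receptors and adaptors, 19 had a probe set and 14 were above the floor for day 10 against day 6, with 1 lower and 0 higher by 2-fold or more and a median of -0.30. Over all genes 12.8% were lower and 8.58% higher by that much, the shares against which the counts of this and the following lists stand. That median was 0.14 with the trend with span subtracted. With the floor at the receptors' 95th percentile, 3 of 18 genes were lower by 2-fold or more, where 13.1% of all genes were. With no floor, 3 of 19 were, where 9.28% of all genes were. Pik3r1, the regulatory subunit of PI3 kinase, had log2 levels of 7.92, 7.35 and 5.96 on days 6, 8 and 10, at least 1.19-fold lower on day 10 than on day 6. Shc1, an adaptor, was 1.79-fold lower and the kinase Akt2 1.63-fold lower. Igf1 had 13.72, 13.49 and 13.73, and Igf1r had 12.52, 12.70 and 12.47. Both were well above the floor on each day and short of 2-fold in each comparison. Insr had 7.38, 7.39 and 5.66, under the floor on every day. Igf1, Igf1r and Insr were named after their values were seen.

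Of 11 listed IGF binding proteins and Igf2 mRNA binding proteins, 7 were compared and 2 were at least 2-fold lower on day 10 than on day 6 (median -0.25). With arrays centred on their median, after quantile or cyclic loess normalization, or with the trend with span subtracted, 1 of the 7 was, and with no floor the median over 9 genes was 0.12. Igfbp5, which holds IGFs in the matrix, had log2 levels of 9.53, 9.82 and 7.34 on days 6, 8 and 10 and was at least 3.65-fold lower. Igf2bp1, a fetal protein that binds Igf2 mRNA, was 2.01-fold lower, at 8.81 on day 10 against 9.82 on day 6 (-0.71 with the trend with span subtracted), and Igfbp4 was 1.79-fold lower. The mannose 6-phosphate pathway, in which Igf2r is 1 of 2 receptors, had 7 genes compared, 0 past 2-fold in either direction and a median of -0.08, which was 0.03 with arrays centred on their median. M6pr, the other receptor, was 1.94-fold lower, at 12.78 on day 10 against 13.74 on day 6, beside 1.91-fold for Igf2r. Psap, a lysosomal precursor, was 1.49-fold lower and Hexa, a hexosaminidase subunit, 1.21-fold higher.

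Of the relatives of Plagl1 and Cdkn1c, 7 genes of the PLAG family and the cell cycle inhibitors were compared for day 10 against day 6, 2 of them lower and 0 higher by 2-fold or more (median 0.48, and 0.22 with the trend with span subtracted). With arrays centred on their median or after quantile normalization 1 of the 7 was lower by 2-fold or more. Plag1, the growth-promoting relative of Plagl1, had log2 levels of 8.41, 8.06 and 5.59 on days 6, 8 and 10 and was at least 1.67-fold lower on day 10 than on day 6. Cdkn1a, the inhibitor induced by p53, had 9.21, 7.85 and 8.15 on the 3 days and was 2.08-fold lower on day 10 than on day 6. Cdkn2a was 1.70-fold higher, at 9.40 on day 10 against 8.64 on day 6.

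Of Notch receptors, ligands and targets, the pathway to which Dlk1 is related, 4 genes were compared, all lower on day 10 (median -1.18). Of the 4, 2 were lower by 2-fold or more. Over all genes, 48.7% were lower, and 12.8% by 2-fold or more. With the floor at the receptors' 95th percentile or with no floor 6 genes were compared and the median was -0.41, again with 2 lower by 2-fold or more. Notch2 had log2 levels of 11.72, 12.18 and 9.52 on days 6, 8 and 10 and was 4.58-fold lower on day 10 than on day 6. Notch3 was at least 1.5-fold lower, and the ligand Jag1 was 1.54-fold lower.

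Of 19 genes of the G alpha s and cAMP pathway compared for day 10 against day 6, 16 were lower on day 10, where 48.7% of all genes were. The median was -0.83. By 2-fold or more, 8 were lower and 0 higher, where 12.8% of all genes were lower and 8.58% higher by that much. Prkacb, a catalytic subunit of protein kinase A, was 3.95-fold lower, at 10.40 on day 10 against 12.38 on day 6. Pde4b, which breaks down cAMP, was 3.11-fold lower, and Ric8b, a chaperone of G alpha s, 2.65-fold lower. With the trend with gene span subtracted, the median of these 19 genes was -0.33 and 2 of them were lower by 2-fold or more, as were 486 of all 5519 genes compared in that way.

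Of 9 genes around Impact and the eIF2 alpha kinases, 3 were higher and 1 lower by 2-fold or more on day 10 than on day 6 (median 0.01, and -0.14 with the trend with span subtracted). Trib3, a target of this stress pathway, had log2 levels of 6.90, 5.26 and 9.61 on days 6, 8 and 10 and was at least 3.54-fold higher on day 10 than on day 6. Ddit3, a further target, was 3.10-fold higher on day 10, and the kinase Eif2ak2 was 3.16-fold lower. Of 9 amino acid transporters around Slc38a4, 7 were lower on day 10 than on day 6, where 48.7% of all genes were. By 2-fold or more, 1 was lower and 1 higher (median -0.54, and -0.51 with the trend with span subtracted). Slc38a3, a glutamine carrier, was at least 1.22-fold lower, Slc38a1 was 1.89-fold lower and Slc1a5, a carrier of neutral amino acids, was 3.00-fold higher.

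Imprints are kept by DNA methylation factors, of which 22 were listed, 8 had a probe set and 7 were compared for day 10 against day 6. Of the 7, 2 were lower and 0 higher by 2-fold or more (median -0.34), and with the trend with span subtracted 1 was lower (median -0.18). Dnmt3l, a cofactor that helps lay down methylation in male germ cells, had log2 levels of 9.39, 6.67 and 6.80 on days 6, 8 and 10, at least 3.30-fold lower on day 10 than on day 6, with its difference already present on day 8. Ctcf, an insulator protein that binds the control region between Igf2 and H19, was 2.44-fold lower, at 10.36 on day 10 against 11.65 on day 6, and -0.96 with the trend with span subtracted. Dnmt3a was 1.44-fold lower. Zfp57, which keeps imprints, had 11.37, 11.61 and 11.03 on days 6, 8 and 10, and Dnmt1, the maintenance methyltransferase, had 13.25, 13.54 and 13.55, both named after their values were seen.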

How the data were processed

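Whole testis RNA of 3 ages was measured on 3 one-colour arrays, each assigned to its day by the label that gives the time of collection. The authors deposited a linear intensity for each RefSeq accession on each array. Per the submitters' processing notes it was made with RMA, with no version given, a method that aligns the arrays' distributions and so hides a change common to most genes. The deposited series table held the same values (largest difference 0). The files' other column, headed as a standard error, states no scale and was not used.

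Intensities were taken to log2. Accessions were matched without version to RefSeq's gene table of GRCr8, used for names, spans and neighbours, which named 9747 of 26419 probe sets (36.9%). The other probe sets may still stand for known genes. Averaging by symbol gave 26299 genes. The floor was the higher of the array's median and the 95th percentile of 1239 olfactory and vomeronasal receptor probe sets, and the median was higher on each array. Intensities ran from 12.8 to 54218 and r between arrays from 0.966 to 0.990 (log2, across probe sets). The number of arrays limits the precision.

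Differences were fitted on log10 span by lowess over named genes (fraction 0.3, 3 iterations, statsmodels 0.14.6), and quantile and cyclic loess normalization used limma 3.58.1. Fold counting and the trend fit were tested on simulated data. Genes named beyond the 10 followed a rule, namely the 6 other imprinted genes, 3 genes per pathway list and up to 2 per marker list with the largest absolute day 10 minus day 6 difference, and the 5 nearest patterns to Plagl1 and Slc38a4. The genes named outside it are neighbours of the 9 genes and others marked in the text as named after their values were seen. Marker genes under that rule whose values are not in the text were left out for length. The genes and lists were chosen with earlier results of these data known. A fold uses the deposited values, and a bound uses the floor.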

Additional observations from a re-analysis of the deposited data

How the results depend on the processing

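Each result was recomputed with arrays centred on their median, after quantile and cyclic loess normalization, with the floor at the receptors' 95th percentile, with no floor, with the brightest probe set of a gene, with the trend with span subtracted and, for the counts of the 9 genes, at 1.5-fold. Plagl1, Mest, Slc38a4, Igf2 and Impact were at least 2-fold lower on day 10 than on day 6 and than on day 8 under the 4 alternatives that could change their values, the 3 normalizations and the trend with span. The floor and probe set alternatives could not, since each of these genes had 1 probe set and was above the floor on days 6 and 8. Their day 10 minus day 6 differences ran from -2.53 to -2.24 for Plagl1, -2.27 to -2.02 for Mest, -2.20 to -1.82 for Slc38a4, -1.85 to -1.74 for Igf2 and -1.48 to -1.21 for Impact. Igf2r, Dlk1 and Cdkn1c had a negative difference under those 4 too, and so had Gnas, with 0.01 for its brightest probe set. For day 10 against day 8, the brightest Cdkn1c probe set gave 0.08 in place of -0.22. In that comparison Igf2 stayed near the 2-fold threshold, from -1.13 to -1.01. Its day 10 value was under the floor, and its bound there was 1.86-fold. Median centring moved the median day 10 minus day 6 difference of all genes to 0.14, from 0.02 as deposited, and split the genes past 2-fold into 1506 lower and 1521 higher, against 1786 and 1197 as deposited. Quantile normalization gave 1631 lower and 1345 higher. With the trend with span subtracted the median of the 9 genes for day 10 against day 6 was -1.21. At 1.5-fold, 8 of the 9 genes were lower on day 10 than on day 6 (23.7% of all genes), 8 on day 10 than on day 8 (24.8%) and 1, Igf2, on day 8 than on day 6 (4.80%). With no floor, 8 of 31 other imprinted genes were past 2-fold for day 10 against day 6, as were 2440 lower and 1918 higher of all 26299 genes. Of the 279 recomputed values 20 moved, a difference or median by more than the median spread between probe sets and a count by over 1.5 times. Among them 0 changed the sign of a difference past 2-fold. Many of the 279 could not move, so this count does not measure robustness. The floor alternatives left each of the 9 genes' differences as it was, and the brightest probe set could change only those of Cdkn1c and Gnas. With the trend with span subtracted, 2 genes of the G alpha s and cAMP list in place of 8 were lower by 2-fold or more. No paired analysis was possible because each day had 1 array.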
